A study of Mus musculus with 6 samples.

Results

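The genes described here encode the proteasome, the barrel-shaped protease that degrades ubiquitin-tagged proteins, and were measured by RNAseq in mouse hearts. Members were taken by name, as protein-coding genes whose symbol starts with Psma, Psmb, Psmc, Psmd, Psme, Psmf or Psmg followed by a digit. This rule gave 49 genes of the 16018 in the deposited table. GENCODE M21 holds 50 genes of such a name, and the remaining one, Psmb11 of the thymus-specific proteasome, was not among the genes analysed here. One member is no subunit: Psmc3ip, whose product works in meiotic recombination, is named after a subunit it binds. The expression of Psme2b, an intronless copy of Psme2, is uncertain because the 2 genes can share reads. All 49 members passed the minimum of 10 mean normalized counts, and 48 of them had a mean of at least 50.

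Hearts came from 3 female NBCe1-B/C knockout mice (KOb/c) and 3 female wild-type mice (WT), all 4-5 weeks old and on a C57BL/6J background. NBCe1, encoded by Slc4a4, is an electrogenic sodium bicarbonate cotransporter, and its B variant is the one found in cardiomyocytes. The knockout removes the B and C variants from the whole body from conception and leaves the kidney variant NBCe1-A in place, so it is not specific to the heart or to cardiomyocytes. Both genotypes were bred from heterozygous parents, and early deaths of KOb/c mice limited the study to this age. Whole-heart RNA mixes cell types, so fewer cells of a type and less RNA per cell cannot be told apart.

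The proteasome core particle, called 20S, is a stack of rings. Alpha subunits form the outer rings, which gate the entrance, and beta subunits form the inner rings, which hold the proteolytic sites. The 19S regulatory particle caps the core: its ATPase ring unfolds substrates and threads them inside, and its non-ATPase subunits bind and remove ubiquitin. Interferon-induced cells replace the 3 catalytic beta subunits with Psmb8, Psmb9 and Psmb10 and form the immunoproteasome, which favours peptides for antigen presentation. In striated muscle the proteasome degrades myofibrillar proteins that muscle ubiquitin ligases have marked.

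Values are normalized counts, the reads counted on a gene after scaling of each library by its own factor. Reads on genes numbered 41364857 to 42037397 in WT and 42619258 to 49100802 in KOb/c libraries, and the member with the fewest reads had 12 in 1 library. Slc4a4, the targeted gene, had 264.0, 944.8 and 268.7 normalized counts in the libraries labelled KOb/c replicates 1 to 3, against 675.1, 822.2 and 788.8 in WT replicates 1 to 3. The library labelled KOb/c replicate 2 thus held more Slc4a4 than any WT library. The counts of members, of the 20S core and of the 19S particle are also given without this library. The summed level of 10 cardiomyocyte markers was 3121336 to 3243569 normalized counts in WT and 3362226 to 3780560 in KOb/c, and no library had any of them at 0. The single markers were split: 5 had a log2 fold change (KOb/c minus WT) above 0 and 5 below, with a median of -0.0029. With length and GC content corrected for as described below, 7 were above 0 and 3 below, with a median of 0.12.

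Most proteasome genes read lower in KOb/c than in WT hearts, by a small margin. The fitted log2 fold change (KOb/c minus WT, on log2 of the normalized count + 1) was below 0 for 40 of the 49 members, against 50.8% of all 16016 genes tested. Its median was -0.14 over the members and -0.0043 over all genes. Within the members, the median was -0.19 over the 14 constitutive 20S subunits and -0.32 over the 3 immunoproteasome subunits. With the length and GC correction described below these medians were -0.06 and -0.21. The 3 immunoproteasome subunits varied between hearts (SE 0.10 to 0.19), and their ratios to the subunits they replace, given below, overlapped between genotypes. No member passed an adjusted p of 0.05 in limma, and the same held for all genes (0.0%), with 3764 genes at an unadjusted p under 0.05; the lowest adjusted p among members was 0.0815. By edgeR's quasi-likelihood test 0 genes passed, with 3837 at an unadjusted p under 0.05.

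At an unadjusted limma p under 0.05, 20 members were lower in KOb/c, beside 10.5% of all genes, and 1 was higher, beside 13.0%. The 3 KOb/c values all lay below the 3 WT values for 29 members, beside 14.6% of all genes, and all lay above them for 2 members, Psme4 and Psmd11, beside 15.6%. Without the library labelled KOb/c replicate 2, 13 members were lower at an unadjusted p under 0.05, and without WT replicate 1 there were 12. The shares of all genes given here and below are of fits to all 6 libraries. Those of limma fits with 1 library left out are not given, so counts from such fits have no share beside them. DESeq2 on the recovered reads, an alternative test, called 7 members lower at an adjusted p under 0.05 (5.03% of its 11979 genes) and 1 higher (8.22%). The 7 that fell by this test were Psma2, Psma6, Psma7, Psmb1, Psmb6, Psmb10 and Psme2, and the 1 that rose was Psme4. Only Psma7 and Psmb1 were called in all 6 DESeq2 fits that left out 1 library; Psma6 was called in 4 of them, Psma2 in 3, and Psmb6, Psmb10, Psme2 and Psme4 in 2 each. All 6 of these lost the call without WT replicate 1 and without WT replicate 2, at adjusted p of up to 0.0674 for Psma6, 0.0642 for Psma2 and 0.209 for Psme2. Without the library labelled KOb/c replicate 2 the calls of Psma2, Psmb6, Psme2 and Psme4 were lost as well, without KOb/c replicate 1 those of Psmb10, Psme2 and Psme4, and without KOb/c replicate 3 those of Psmb6 and Psmb10.

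Transcript length moved with these values. Over 15978 genes with an annotated length, Spearman's rho between the fold change and the longest transcript was 0.45, and over the 49 members it was 0.40 (across genes, which are not independent replicates). Members are short, with a median longest transcript of 1883 nucleotides against 3188 over all genes tested. Of the 26 members between 1000 and 2000 nucleotides, 13 were lower at an unadjusted p under 0.05, with a median of -0.14; over all 2786 genes of that length the share was 21.8% and the median -0.15. The 6 members of at most 1000 nucleotides had a median of -0.21, and the 1274 genes of that length had a median of -0.20. Of these 6, 4 were lower at an unadjusted p under 0.05, beside 24.7% of genes of that length. The 15 members between 2000 and 4000 nucleotides had a median of -0.07, against -0.03 over all genes of that length, with 3 lower beside 9.61%. The 2 members over 4000 nucleotides, Psme4 and Psmd5, were at 0.29 and -0.14, against a median of 0.13 over all genes of that length.

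**Figure D1:**
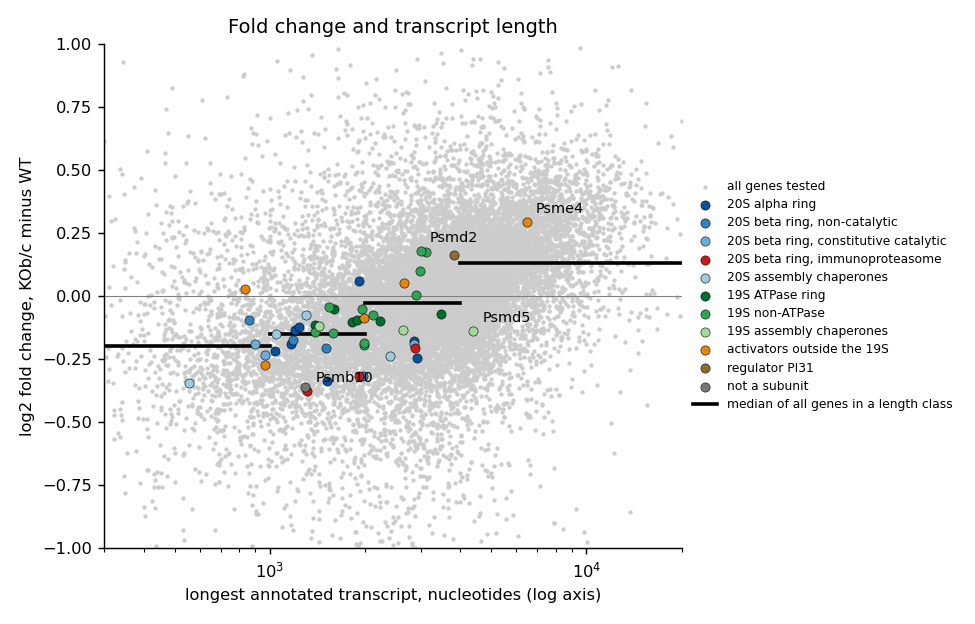
The fitted log2 fold change (KOb/c minus WT) is plotted against the longest annotated transcript in nucleotides on a log axis; grey points are all genes tested, coloured points are the 49 members by structural group, and black bars are the medians of all genes in each of 4 length classes, with 291 of 15978 genes outside the axes. The black medians climb from -0.20 to 0.13 with length, and the members' medians climb too. Of the 2 longest members, Psme4 is highest at 0.29, while Psmd5 lies at -0.14, under the median of its class.

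After each library was corrected for transcript length and GC content by a smooth curve over all genes, the members' median was 0.0016, with 24 of 49 members below 0. At an unadjusted limma p under 0.05, 4 members were then lower, Psma7, Psma2, Psmb1 and Psmd5, beside 6.69% of all genes, and 2 were higher, Psmd1 and Psmd2, beside 7.75%. DESeq2 with the same correction called 0 members at an adjusted p under 0.05, beside 2.43% of its 14118 genes, with 5 members at an unadjusted p under 0.05. The groups below are therefore given with corrected values beside the uncorrected ones.

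**Figure D2:**
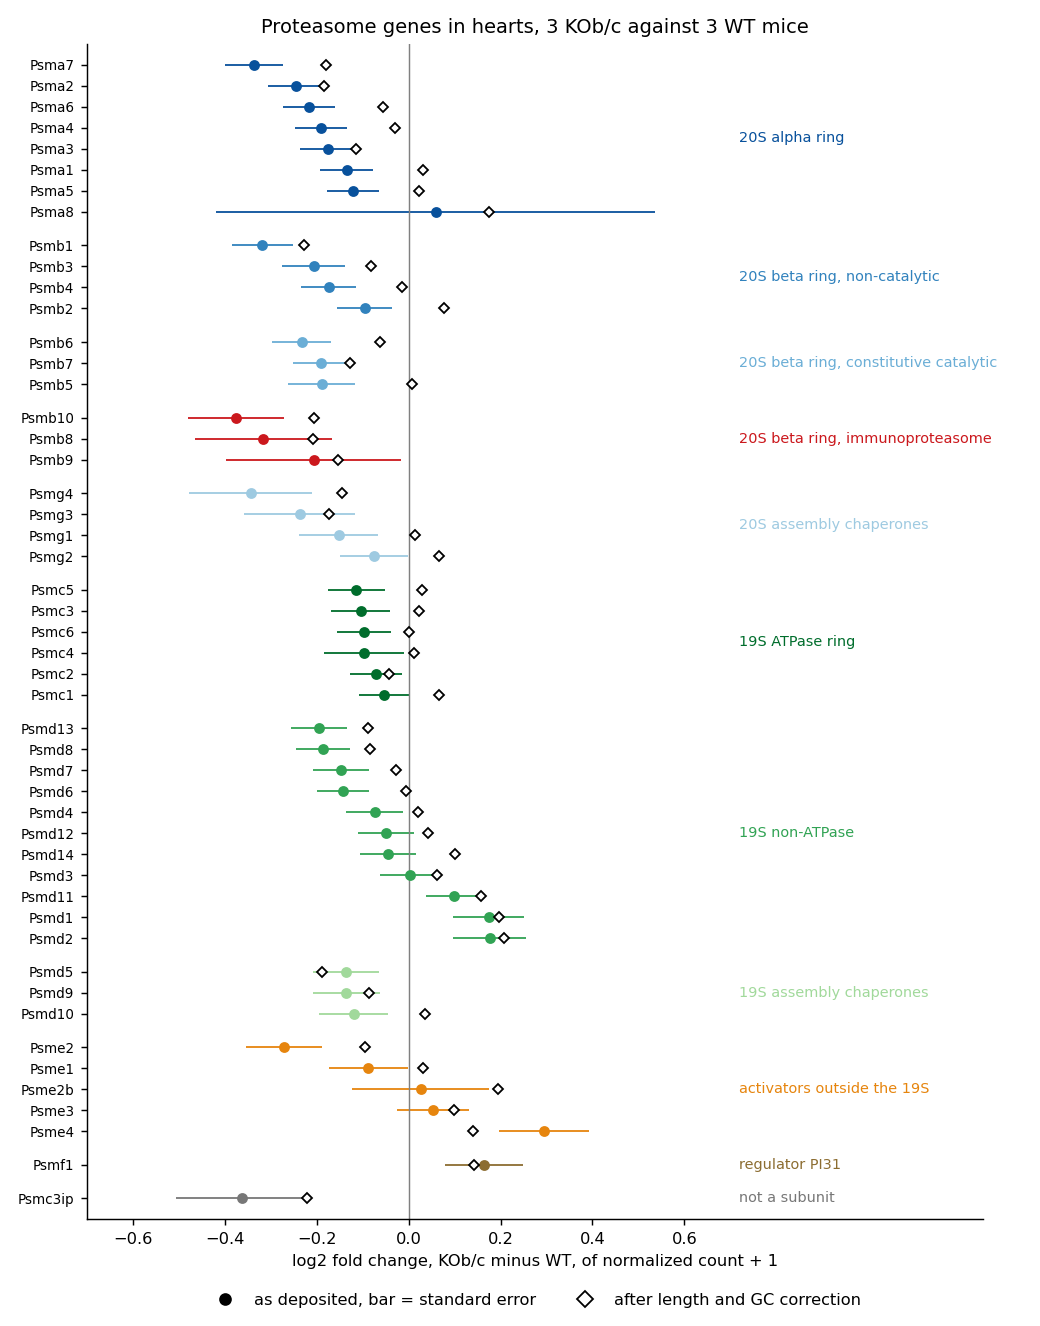
Each row is a proteasome gene, grouped by its place in the complex; filled points with bars are the log2 fold change (KOb/c minus WT) and its standard error, and open diamonds are the same after the length and GC correction. All 14 constitutive 20S subunits (the alpha ring without Psma8, and the non-catalytic and constitutive catalytic beta rings) lie left of 0 as deposited, while 10 of the 14 diamonds do.

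The 14 constitutive subunits of the 20S core (Psma1 to Psma7 and Psmb1 to Psmb7) were lower as a block. Their summed level was 56913 to 59016 normalized counts in KOb/c hearts and 65947 to 69202 in WT hearts, without overlap. Every one of the 14 had 3 KOb/c values below its 3 WT values, beside 14.6% of all genes, and 12 of 14 were lower at an unadjusted p under 0.05, beside 10.5%. Their median log2 fold change was -0.19, with a range from -0.34 to -0.10. Without the library labelled KOb/c replicate 2 all 14 fold changes were still below 0, with 7 at an unadjusted p under 0.05, and without WT replicate 1 there were also 7. After the length and GC correction 3 had an unadjusted p under 0.05, beside 6.69% of all genes. The groups of 3 did not overlap, and the share of all genes without overlap after correction is not given here. The corrected median was -0.06, and 10 of 14 were below 0. That median was -0.03 when the correction used principal transcripts, and with 1 library left out it ran from -0.02 without WT replicate 1 to -0.10 without KOb/c replicate 1 or WT replicate 3; it was -0.03 without KOb/c replicate 2 or 3.

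Psma7 (ENSMUSG00000027566, chr2:180036374-180042433 of GRCm38, minus strand), an alpha subunit that helps to form the outer ring, had the lowest fold change of the core. It read 3588, 4019 and 3829 normalized counts in KOb/c replicates 1 to 3 and 4889, 4851 and 4693 in WT replicates 1 to 3, so the groups were far apart. The means were 3812 ± 216 (SD, n = 3) and 4811 ± 104, or 79.2% of WT, with a log2 fold change of -0.34 (SE 0.06) and an adjusted limma p of 0.0815. DESeq2 gave an adjusted p of 0.00133 without and 0.184 with the length and GC correction, under which the fold change was -0.18.

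The closest to it was Psmb1 (chr17:15475021-15499751, minus strand), a non-catalytic beta subunit. Its KOb/c hearts held 4040, 3841 and 4066 normalized counts and its WT hearts 5257, 4642 and 5019, again without overlap. That is 80.1% of WT, a log2 fold change of -0.32 (SE 0.07) and an adjusted limma p of 0.0815. The corrected fold change was -0.23, with a corrected DESeq2 adjusted p of 0.125.

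Psma2 (chr13:14613240-14674236, plus strand) and Psma6 (chr12:55384222-55418454, plus strand) are further alpha ring subunits. Psma2 read 3567, 3325 and 3647 in KOb/c and 4094, 4191 and 4203 in WT, 84.4% of WT (log2 fold change -0.25, SE 0.06). For Psma6 the values were 5180, 5355 and 5408 in KOb/c and 6167, 6308 and 6058 in WT, 86.0% of WT (log2 fold change -0.22, SE 0.06). Both had non-overlapping groups and both fell by DESeq2, at adjusted p of 0.0180 and 0.0212. With the correction they came apart: Psma2 stayed at -0.19, with groups that did not overlap, and Psma6 was at -0.06, with groups that did. The other 4 constitutive alpha subunits, Psma1, Psma3, Psma4 and Psma5, were at 87.6% to 91.9% of WT, and after correction at -0.11 (Psma3) to 0.03 (Psma1), with overlapping groups. Psma8, the alpha subunit of the testis proteasome, had only 12.4 to 44.1 normalized counts, and its fold change of 0.06 had a standard error of 0.48.

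**Figure D3:**
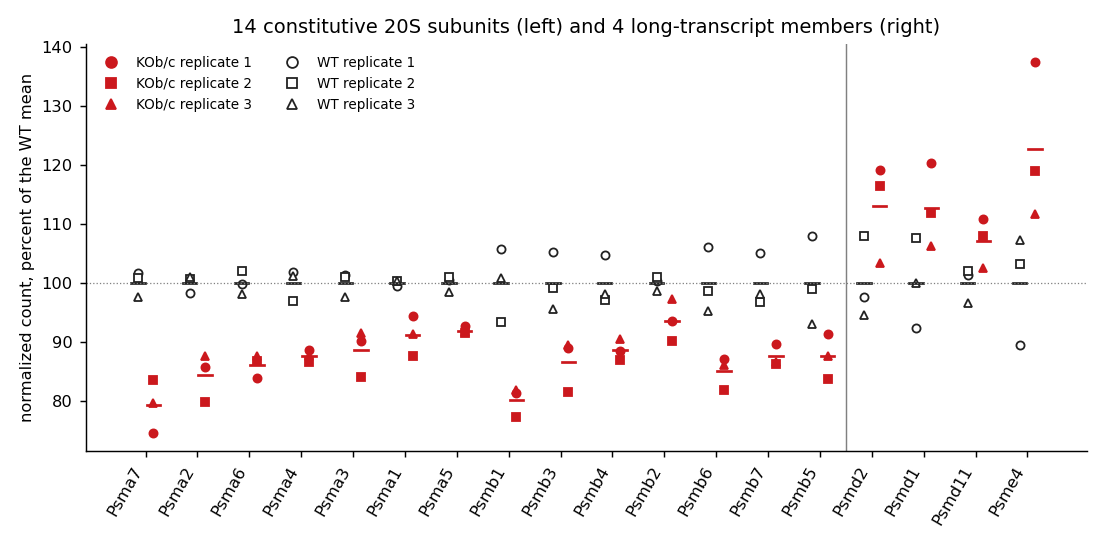
Normalized counts in each heart are shown as a percent of the gene's WT mean for the 14 constitutive 20S subunits (left of the line) and for Psmd2, Psmd1, Psmd11 and Psme4 (right); filled red symbols are KOb/c, open black symbols WT, shapes mark the replicate number, and short lines are group means. Every red symbol of the 14 core subunits lies under the black symbols of its gene, whereas Psmd11 and Psme4 lie wholly above and Psmd1 and Psmd2 overlap.

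The catalytic beta subunits of the ordinary core were lower too. Psmb5 (chr14:54614119-54618022, minus strand) carries the chymotrypsin-like site and read 4072, 3733 and 3907 normalized counts in KOb/c and 4815, 4410 and 4148 in WT. Psmb6 (chr11:70525367-70527858, plus strand) carries the caspase-like site and read 4728, 4444 and 4671 in KOb/c and 5758, 5354 and 5165 in WT. Psmb7 (chr2:38588036-38644087, minus strand) carries the trypsin-like site and read 7086, 6816 and 6843 in KOb/c and 8300, 7639 and 7757 in WT. None of the 3 overlapped between genotypes, and the lowest WT value was WT replicate 3 for Psmb5 and Psmb6 and WT replicate 2 for Psmb7. The log2 fold changes were -0.19, -0.23 and -0.19 (SE 0.07, 0.06 and 0.06), with adjusted limma p of 0.165, 0.0958 and 0.115. After correction they were 0.01, -0.06 and -0.13, each with overlapping groups, and with principal transcripts in the correction 0.02, -0.03 and -0.05. Psmb2, Psmb3 and Psmb4, the other non-catalytic beta subunits, were at 86.6% to 93.6% of WT, and only Psmb2 had an unadjusted p over 0.05. Their corrected values were 0.08, -0.08 and -0.01, with overlapping groups.

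Per kilobase of the principal transcript, levels within the core differed about 5-fold in each library, although the subunits enter the particle in equal numbers. Psma3 was lowest in all 6 libraries, at 1127 to 1226 normalized counts per kb in KOb/c and 1309 to 1360 in WT. Psmb7 or Psmb6 was highest, at 5875 to 6109 per kb in KOb/c and 6687 to 7216 in WT. The spread between subunits of 1 heart was therefore much wider than the difference between genotypes. Such values depend on which transcript is taken as the length, since Psmb7 has a principal transcript of 1160 and a longest one of 2849 nucleotides.

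**Figure D4:**
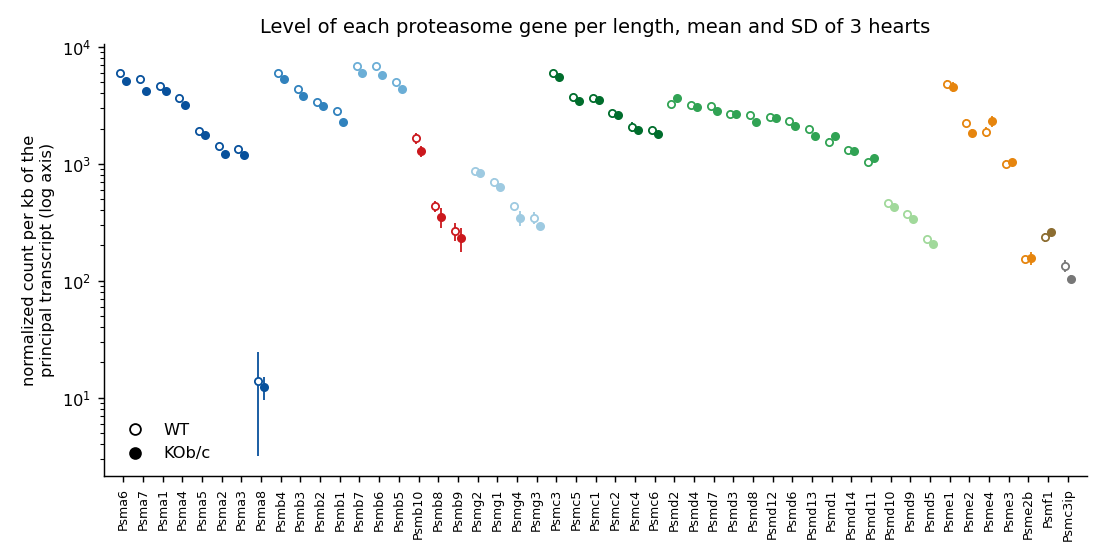
Normalized counts per kilobase of the principal transcript are drawn on a log axis for each member, ordered by structural group, with open points for the WT mean, filled points for the KOb/c mean and bars for the SD of 3 hearts. Over all members the WT means run from 13.8 per kb for Psma8 to 6809 for Psmb7, while the 2 genotypes of a gene lie close together.

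The immunoproteasome subunits were at far lower levels than their constitutive counterparts and varied more between hearts. Psmb10 (chr8:105935735-105938444, minus strand), which replaces Psmb7, read 1492, 1865 and 1673 normalized counts in KOb/c and 2126, 2426 and 1968 in WT, with no overlap. Its KOb/c mean was 1676 ± 187 (SD, n = 3) against 2173 ± 233, or 77.1% of WT, the lowest fold change of all members at -0.37 (SE 0.10, adjusted limma p 0.0961). DESeq2 gave an adjusted p of 0.0159, and 0.340 with the correction, under which the fold change was -0.21 and the groups overlapped.

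Psmb8 (chr17:34197721-34201454, plus strand), which replaces Psmb5, read 446.6, 657.5 and 609.3 in KOb/c and 626.9, 719.3 and 767.2 in WT. Its groups overlapped because KOb/c replicate 2 exceeded WT replicate 1, and the log2 fold change was -0.32 (SE 0.15, adjusted limma p 0.239; -0.21 after correction). Psmb9 (chr17:34181987-34187764, minus strand), which replaces Psmb6, read 233.2, 373.2 and 327.2 in KOb/c and 306.3, 427.2 and 335.1 in WT. Its fold change was -0.21 (SE 0.19, adjusted limma p 0.555), and without KOb/c replicate 1 it was -0.01. After correction it was -0.15, or -0.05 with principal transcripts. KOb/c replicate 1 had the lowest value of all 6 hearts for each of the 3 subunits.

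The exchange of catalytic subunits was compared within each library, where library scaling cancels. The percents are of counts not divided by transcript length, so their size is read here only between libraries. Psmb8 amounted to 10.97%, 17.6% and 15.6% of Psmb5 in KOb/c replicates 1 to 3 and 13.0%, 16.3% and 18.5% in WT replicates 1 to 3. Psmb9 amounted to 4.93%, 8.40% and 7.01% of Psmb6 in KOb/c and 5.32%, 7.98% and 6.49% in WT. Psmb10 amounted to 21.1%, 27.4% and 24.4% of Psmb7 in KOb/c and 25.6%, 31.8% and 25.4% in WT. KOb/c replicate 1 was lowest for all 3 pairs, and the groups overlapped in each. For Psmb10 over Psmb7 the overlap came from KOb/c replicate 2 alone, while KOb/c replicates 1 and 3 lay below all WT values.

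As log2 ratios, KOb/c minus WT was -0.13 (SE 0.25) for Psmb8 over Psmb5, 0.03 (SE 0.28) for Psmb9 over Psmb6 and -0.18 (SE 0.15) for Psmb10 over Psmb7. Exact two-sided permutation tests of the 3 pairs gave p of 0.6, 0.9 and 0.4, each 0.9 after Benjamini-Hochberg adjustment over the 3; with 3 against 3 hearts the smallest possible p is 0.1. After the length and GC correction the differences were -0.22, -0.09 and -0.08, each with an exact p of 0.6. Uncorrected and without KOb/c replicate 2, the difference for Psmb9 over Psmb6 was -0.15.

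**Figure D5:**
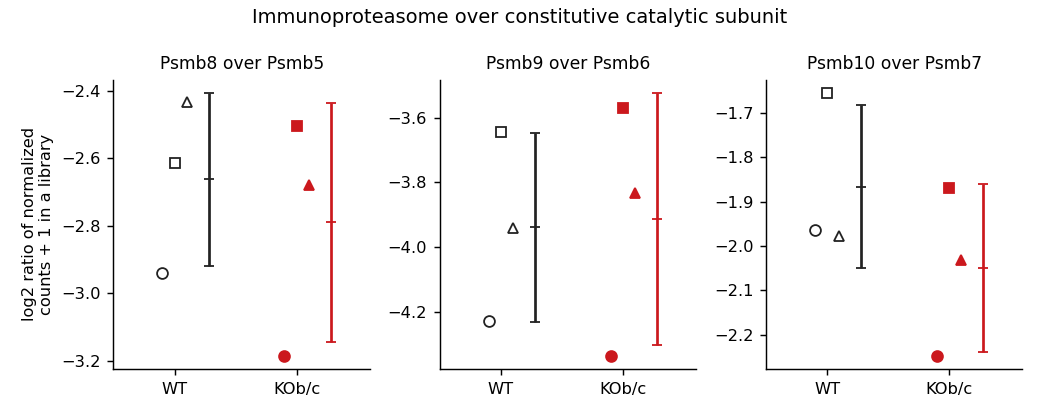
The log2 ratio of an immunoproteasome subunit to the constitutive subunit it replaces is shown for each of the 3 pairs, with WT hearts as open black and KOb/c hearts as filled red symbols, shapes for the replicate number, and the mean with its SD beside them. The 2 genotypes overlap in every panel, and KOb/c replicate 1 is the lowest point of each.

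Immune cells express the immunoproteasome, so their markers are given beside it. The summed level of 10 macrophage and myeloid markers was 13703 to 16245 normalized counts in KOb/c and 17545 to 17830 in WT, without overlap. Of the 10, 3 had a fold change above 0 and 7 below (median -0.25), and 5 were lower at an unadjusted p under 0.05, beside 10.5% of all genes. After the length and GC correction 3 were lower, beside 6.69%, with a median of -0.12. Of 10 lymphocyte markers, Cd3e was not analysed here, and the other 9 summed to 312 to 503 normalized counts in KOb/c and 323 to 789 in WT, with none at 0 and none at an unadjusted p under 0.05. The part of these cells in the values of Psmb8, Psmb9 and Psmb10 was not tested.

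The promoter sequences below are shown because Psmb9 and Tap1, the peptide transporter gene beside it, share a promoter region, so that both can be read beside it. Their RefSeq starts lie head to head, 225 bases apart, at chr17:34187330 and chr17:34187556 of GRCm38.p6; GENCODE draws Psmb9 further upstream, across this interval. It holds 1 CCAAT box and 1 GC box (capitals). The printed stretches run 5′ to 3′ on the minus strand, with the CCAAT box read on the other strand. These stretches lie at chr17:34187331-34187348 and chr17:34187370-34187395:
CCAAT box: gcagccgctgATTGGaaa
GC box: cgcgatgatgGGGCGGggcctcagtc
Tap1 read 472.4, 696.7 and 610.2 normalized counts in KOb/c and 556.3, 605.0 and 679.5 in WT, a log2 fold change of -0.06 (SE 0.15, adjusted limma p 0.834). Like Psmb9, it was lowest in KOb/c replicate 1.

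The interferon gamma activated site, TTCNNNGAA, was found on either strand in the promoter windows (250 bases before to 50 after the RefSeq start) of 3 of 41 members with a window, beside 8.23% of 11584 genes of the table. Psmb8 is the 1 immunoproteasome gene among them, and the printed stretch with its match (capitals) lies at chr17:34198088-34198116 of GRCm38.p6, plus strand:
Psmb8: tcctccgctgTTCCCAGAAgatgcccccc
Among 13 genes of interferon gamma signalling, 1 was lower (beside 10.5% of all genes) and 0 were higher (beside 13.0%) at an unadjusted p under 0.05. The same counts stood after correction, beside 6.69% and 7.75%. Without KOb/c replicate 3 or WT replicate 1 there were 0 in both directions. Irf1, an interferon-induced transcription factor, read 1043, 1290 and 1231 normalized counts in KOb/c and 1186, 1263 and 1318 in WT, with overlap. Its log2 fold change was -0.08 (SE 0.09), and that of Irf8, a factor of myeloid cells, was -0.27 (SE 0.14). The gene at an unadjusted p under 0.05 was Ifngr2, a chain of the interferon gamma receptor, at -0.15 (SE 0.06, adjusted limma p 0.165; -0.17 after correction).

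Class I antigen processing, which takes up the peptides that the proteasome makes, had 2 of 11 genes higher (beside 13.0% of all genes) and 1 lower (beside 10.5%) at an unadjusted p under 0.05. After correction 1 was higher and 0 were lower, beside 7.75% and 6.69% of all genes. With 1 library left out 1 to 2 were higher and 0 to 3 lower, the 3 without KOb/c replicate 2. Tapbp (tapasin), which loads peptides onto class I molecules, read 2845, 3127 and 3060 normalized counts in KOb/c and 2576, 2702 and 2271 in WT. It rose by DESeq2 without and with the correction (log2 fold change 0.26, adjusted p 0.0458 and 0.0135), and its limma adjusted p was 0.111. The uncorrected call held in 2 of 6 fits with 1 library left out and was lost without KOb/c replicate 2 or 3 or WT replicate 1 or 3, at adjusted p of up to 0.153. Erap1, which trims the peptides, read 1814, 1630 and 1851 in KOb/c and 1261, 1626 and 1447 in WT (log2 fold change 0.29, adjusted limma p 0.132; 0.19 after correction), where KOb/c replicate 2 was barely over WT replicate 2.

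The 19S regulatory particle had values closer to WT than the core. Its 17 subunits summed to 77699 to 82274 normalized counts in KOb/c and 80334 to 84950 in WT, with overlap. The fold change was below 0 for 13 of 17, with a median of -0.07, and 4 were lower and 0 higher at an unadjusted p under 0.05, beside 10.5% and 13.0% of all genes. Without KOb/c replicate 2 or 3 or WT replicate 1 or 2 only 2 were lower, and without KOb/c replicate 3 or WT replicate 2 as many, 2, were higher. After correction the median was 0.02, with 12 of 17 above 0. Then 0 were lower and 2 higher at an unadjusted p under 0.05, beside 6.69% and 7.75% of all genes. All 6 ATPases were below 0, between -0.11 and -0.05, none at an unadjusted p under 0.05; the lowest p was that of Psmc5, with 4506, 4770 and 4299 normalized counts in KOb/c and 4978, 4944 and 4758 in WT (adjusted limma p 0.306; 0.03 after correction).

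Non-ATPase subunits went both ways. Psmd13 (chr7:140881968-140898643, plus strand), a scaffold subunit of the lid, read 3417, 3468 and 3461 in KOb/c and 4174, 3840 and 3843 in WT, 87.3% of WT without overlap (log2 fold change -0.20, SE 0.06, adjusted limma p 0.113; -0.09 after correction). Psmd6, Psmd7 and Psmd8, also of the lid, were the other 3 at an unadjusted p under 0.05, at 87.9% to 90.6% of WT, and after correction at -0.01, -0.03 and -0.08. The deubiquitinase subunit Psmd14 was at 97.0% and the ubiquitin receptor Psmd4 at 95.0% of WT, both with overlapping groups, and after correction at 0.10, then without overlap, and 0.02.

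Psmd1 (chr1:86064387-86139151, plus strand) and Psmd2 (chr16:20651652-20663414, plus strand), the 2 large scaffolds at the base of the cap, were on the other side. Psmd1 read 5747, 5342 and 5079 normalized counts in KOb/c and 4410, 5144 and 4779 in WT (log2 fold change 0.17, SE 0.08, adjusted limma p 0.214). Psmd2 read 11340, 11085 and 9840 in KOb/c and 9282, 10263 and 8990 in WT (0.18, SE 0.08, adjusted limma p 0.221). KOb/c replicate 3 lay within the WT values for both. The correction left them at 0.20 and 0.21, with unadjusted p of 0.0450 and 0.0451 but adjusted limma p of 0.336 for each. Psmd11, a lid subunit, read 3278, 3192 and 3032 in KOb/c and 2993, 3017 and 2856 in WT, just without overlap (0.10, SE 0.06, adjusted limma p 0.363; 0.16 after correction, with overlap).

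The core was set against the cap within each library as the mean log2 level of the 14 core subunits minus that of the 17 subunits of the 19S. This difference was -0.15, -0.19 and -0.07 in KOb/c replicates 1 to 3 and 0.04, -0.03 and 0.02 in WT replicates 1 to 3. Its size depends on transcript length and is read here only between libraries. The KOb/c values lay below the WT values, with means of -0.14 and 0.01. After the length and GC correction they were -0.12, -0.16 and -0.06 in KOb/c and 0.02, -0.04 and -0.01 in WT, still without overlap, with KOb/c replicate 3 closest to WT. The library whose Slc4a4 level was above that of every WT library, KOb/c replicate 2, had the lowest of the 6 values. No test was made of this difference, since the groups were compared with earlier results known.

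Activators outside the 19S open the core gate by themselves. Psme4 (PA200; chr11:30771726-30880361, plus strand), a large activator linked to the degradation of acetylated histones, read 16786, 14535 and 13639 normalized counts in KOb/c and 10923, 12612 and 13106 in WT. All KOb/c values lay above all WT values, with KOb/c replicate 3 and WT replicate 3 close together. The means were 14987 ± 1622 (SD, n = 3) and 12214 ± 1144, a log2 fold change of 0.29 (SE 0.10) and an adjusted limma p of 0.127. It rose by DESeq2, at an adjusted p of 0.0364, a call that 4 of the 6 fits with 1 library left out did not make. Its transcript of 6491 nucleotides is the longest of the members, and after correction the fold change was 0.14 with overlapping groups (adjusted DESeq2 p 0.457).

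Psme1 and Psme2 form the interferon-inducible activator ring PA28. They sit beside each other on chromosome 14, at chr14:55578123-55581529 and chr14:55587441-55591113. Psme2 read 1646, 1757 and 1901 in KOb/c and 2313, 2102 and 1992 in WT without overlap (log2 fold change -0.27, SE 0.08, adjusted limma p 0.108), and it fell by DESeq2 at an adjusted p of 0.0448. Psme1 read 5450, 4530 and 5279 in KOb/c and 5818, 5153 and 5218 in WT, with overlap (-0.09, SE 0.09). After correction Psme2 was at -0.10 and Psme1 at 0.03. Psme3, the nuclear activator, was at 104% of WT, and Psme2b at 102%, with corrected values of 0.10 and 0.19, both with overlap.

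Psmf1 encodes PI31, a protein that binds the core. It read 1038, 1012 and 957.8 normalized counts in KOb/c and 825.7, 976.1 and 887.8 in WT, with a log2 fold change of 0.16 (SE 0.08, adjusted limma p 0.278; 0.14 after correction), and KOb/c replicate 3 lay within the WT values.

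Dedicated chaperones build the particle, and their members were all below 0. Psmg4, which assists alpha ring assembly, read 161.8, 196.4 and 213.7 in KOb/c and 246.9, 244.3 and 231.0 in WT without overlap (log2 fold change -0.34, SE 0.13, adjusted limma p 0.172). Its transcript of 555 nucleotides is the shortest of the members, and the corrected value was -0.14. Psmg1, Psmg2 and Psmg3 were at 84.5% to 94.9% of WT, and after correction at 0.01, 0.07 and -0.17 (-0.03 for Psmg3 with principal transcripts). The 3 chaperones of the 19S ATPase ring, Psmd5, Psmd9 and Psmd10, were at 90.9% to 92.0% of WT, each without overlap and none at an unadjusted p under 0.05. Psmd9 and Psmd10 were at -0.09 and 0.04 after correction, with overlap. Psmd5 (chr2:34849734-34874968, minus strand) read 952.8, 874.6 and 902.8 in KOb/c and 1025, 1000 and 975.5 in WT. It was further from 0 after correction than before, at -0.19 against -0.14, with an unadjusted p of 0.0361 and an adjusted limma p of 0.317. Psmc3ip, which is no subunit, had a fold change of -0.36 (SE 0.14, adjusted limma p 0.180; -0.22 after correction), within the range of the subunits.

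Pomp, the maturation factor that leads beta ring assembly and is then degraded by the finished core, has no Psm name and is no member. It read 2701, 2885 and 3037 normalized counts in KOb/c and 3482, 3340 and 3441 in WT, without overlap. Its fold change was -0.25 (SE 0.06, adjusted limma p 0.0875), and it fell by DESeq2 at an adjusted p of 0.0232. Its longest transcript is 3850 nucleotides, and with the correction it was at -0.28 and still passed in DESeq2 (adjusted p 0.0295). Its principal transcript is shorter, at 1579 nucleotides, and with that length in the correction it was at -0.15. Uncorrected, its call held in 2 of 6 fits with 1 library left out and was lost without KOb/c replicate 1 or 2 or WT replicate 1 or 3, at adjusted p of up to 0.0998. Of the 10 proteasome partners tested, 2 were lower and 2 higher at an unadjusted p under 0.05, beside 10.5% and 13.0% of all genes. After correction 1 was lower and 2 higher, beside 6.69% and 7.75%. Ube3c, a ubiquitin ligase that works on the proteasome, was at 0.28 (SE 0.08) and rose by DESeq2 (adjusted p 0.0244; 0.322 with the correction; called in 3 of 6 fits with 1 library left out, lost without KOb/c replicate 1 or WT replicate 1 or 3, up to 0.101).

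The ubiquitin supply showed both directions. Rps27a encodes a ubiquitin fused to a ribosomal protein and read 4763, 5451 and 5390 normalized counts in KOb/c and 7716, 7001 and 7244 in WT (log2 fold change -0.49, SE 0.07, adjusted limma p 0.0815). Every KOb/c heart lay far below every WT heart. It fell by DESeq2 without and with the correction (adjusted p 1.63e-05 and 0.0171). Uncorrected, it was called in all 6 fits with 1 library left out. Its longest transcript is short, at 928 nucleotides. Uba1, the main ubiquitin-activating enzyme, was chosen for naming after its values were seen; it read 12171, 11401 and 11386 normalized counts in KOb/c and 8985, 9793 and 8941 in WT, without overlap. It rose by DESeq2 without and with the correction (log2 fold change 0.34, SE 0.07; adjusted p 0.000902 and 0.0121), and was called in all 6 uncorrected fits with 1 library left out. Of the 6 ubiquitin and activating enzyme genes, 2 were lower and 2 higher at an unadjusted p under 0.05, beside 10.5% and 13.0% of all genes. After correction 2 were lower and 1 higher, beside 6.69% and 7.75%. The count of those higher was also 1 without any 1 library other than WT replicate 3.

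Among 10 genes of substrate delivery, which hand ubiquitin-tagged proteins to the cap, 3 were higher (beside 13.0% of all genes) and 0 lower (beside 10.5%) at an unadjusted p under 0.05. After correction 2 were higher and 0 lower, beside 7.75% and 6.69%. With 1 library left out 2 to 6 were higher, with 5 without KOb/c replicate 3 and 6 without WT replicate 2. Ubqln2, a shuttle that binds ubiquitin and the cap, read 1267, 1201 and 1223 normalized counts in KOb/c and 913.8, 988.6 and 986.8 in WT, far apart. It rose by DESeq2 (log2 fold change 0.35, adjusted p 0.00492 and, with the correction, 0.0167), with an adjusted limma p of 0.0815, and was called in all 6 fits with 1 library left out. Its relative Ubqln1 was at 0.23 (SE 0.07, adjusted limma p 0.112; 0.21 after correction).

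Of the 10 muscle ubiquitin ligases, 2 were higher and 2 lower at an unadjusted p under 0.05, beside 13.0% and 10.5% of all genes. Without any 1 KOb/c library 1 was lower, and without WT replicate 1 or 2 there were 0. After correction, with all 6 libraries, 3 were higher and 1 lower, beside 7.75% and 6.69% of all genes. Fbxo32 (atrogin-1), a ligase that rises in muscle wasting, read 10775, 8862 and 7848 normalized counts in KOb/c and 4412, 5617 and 6944 in WT, without overlap. It rose by DESeq2 (log2 fold change 0.71 with SE 0.17 in limma; adjusted DESeq2 p 0.000534 and, with the correction, 0.0136), and its adjusted limma p was 0.0832. The uncorrected call was lost without KOb/c replicate 1 or 2 or WT replicate 2, at adjusted p of up to 0.135. Asb15, a muscle ligase adaptor, also rose by DESeq2 without and with the correction (0.48, SE 0.13; adjusted p 0.00585 and 0.0264), and its uncorrected call was lost without WT replicate 1 (0.0716). Trim63 (MuRF1), the other ligase known from muscle atrophy, read 17891, 14984 and 16677 in KOb/c and 15153, 14645 and 15234 in WT, with overlap (0.13, SE 0.08, adjusted limma p 0.324; 0.24 after correction).

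Transcriptional control of the proteasome was looked at through its regulators and through the letters of the promoters. The main activator is NRF1, encoded by Nfe2l1, which binds the antioxidant response element when proteasome activity is short, and Bach1 is a repressor at the same element. Nfe2l1 read 31196, 31317 and 25828 normalized counts in KOb/c and 25968, 28060 and 22989 in WT, with overlap (log2 fold change 0.20, SE 0.10, adjusted limma p 0.288). Bach1 read 1843, 1580 and 1438 in KOb/c and 1194, 1278 and 1366 in WT (0.34, SE 0.10, adjusted limma p 0.107), and rose by DESeq2 (adjusted p 0.0300; 0.367 with the correction). That call was lost without KOb/c replicate 1 or 2 or WT replicate 1 or 2, at adjusted p of up to 0.158. Of the 9 genes of this list, Bach1 was the 1 at an unadjusted p under 0.05, beside 13.0% of all genes, and 8 of 9 had a fold change above 0. After correction 0 were higher and 1 lower, beside 7.75% and 6.69% of all genes, and the lower gene was Mafg, at -0.23. Without KOb/c replicate 3 the count of those higher was 3, and without WT replicate 1 it was 2.

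The core of that element, TGACNNNGC on either strand, occurred in 6 of the 41 members with a RefSeq window (14.6%), beside 16.9% of the 11584 genes of the table. The 6 are shown because they include members on both sides of 0. Capitals mark the match, in which the 3 middle letters are free, and in Psmc6, Psmd12 and Psme4 it is read on the opposite strand; each line runs 5′ to 3′ on the gene's own strand, GRCm38.p6.
Psmb5: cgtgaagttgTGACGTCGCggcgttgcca
Psmb6: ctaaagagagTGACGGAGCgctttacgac
Psmc6: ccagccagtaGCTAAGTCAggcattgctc
Psmd12: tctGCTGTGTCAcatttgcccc
Psmd9: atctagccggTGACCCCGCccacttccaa
Psme4: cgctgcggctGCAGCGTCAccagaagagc
The printed stretches lie at chr14:54618024-54618052 (minus strand), chr11:70525338-70525366, chr14:45329587-45329615, chr11:107479278-107479299, chr5:123228149-123228177 and chr11:30771758-30771786 (plus strand), in that order. The match starts at -47 and -9 from the RefSeq start in Psmb5 and Psmb6, and at -7 in Psme4. The log2 fold changes of the 6 ran from -0.23 in Psmb6 to 0.29 in Psme4, with Psmb5 at -0.19, Psmd9 at -0.14, Psmc6 at -0.10 and Psmd12 at -0.05. Matches are descriptions of letters and no evidence of binding.

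Other promoter letters were counted in the same windows, on both strands. The CCAAT box (CCAAT) was in 14 of 41 members (34.1%, beside 42.3% of genes of the table), the GC box (GGGCGG) in 23 (56.1%, beside 65.7%), and the nuclear respiratory factor motif (GCGCANGCG) in 7 (17.1%, beside 13.9%). The ETS motif (CCGGAAG) was in 15 members (36.6%, beside 18.3%), but in only 1 of the 11 constitutive core subunits with a window, Psma6. The interferon response element core (GAAANNGAA) was in 7 (17.1%, beside 8.74%), among them Psme1 and none of the 3 immunoproteasome genes. The 8 members without a window were Psma8, Psmb1, Psmb2, Psmb7, Psmc3, Psmd3, Psmd7 and Psmg2.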

How the data were processed

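RNA from 3 KOb/c and 3 WT hearts was sequenced as paired reads on an Illumina HiSeq. Per the labels' processing notes, the authors used Trimmomatic 0.36, STAR 2.5.2b, featureCounts of Subread 1.5.2 and DESeq2 on GRCm38; the annotation, strand setting and handling of shared reads are not given in the sources used here. The deposited values are normalized counts (unit: signal), with 1 row a gene. Dividing each library by the value of 1 read gave whole reads for 100% of values (within 0.01 read), and these recovered reads were used for the count tests. Genes with a mean of at least 10 were tested by limma 3.58.1 in R 4.3.3, with a variance trend, on log2(normalized count + 1), two-sided, with Benjamini-Hochberg adjustment over all genes and a threshold of 0.05. A fold change on this scale understates that of low genes. Labels do not state whether the libraries of a genotype come from separate litters, so p-values measure the spread between these hearts. Alternatives were edgeR 4.0.16 and DESeq2 1.42.0 on recovered reads, pseudocounts of 0.5 and 5, no filter or a mean of 50, equal totals, quantile normalization, sample weights, a replicate block, each library left out, and a correction for longest transcript length and GC content (splines with 5 degrees of freedom). The correction by principal transcript, the corrected DESeq2 fit and the DESeq2 and corrected fits without 1 library were added after the data were seen. The fits were tested on simulated data. Lengths came from GENCODE M21 and promoters from RefSeq (GRCm38.p6).

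Members and gene lists were chosen with earlier results of these data known. Named in the text are the targeted gene, the catalytic subunits, Psme1 and Psme2, the 5 highest and 5 lowest members, the member with the lowest p in each structural group, members called by DESeq2, and in each pathway list the 2 genes with the lowest p with Nfe2l1, Fbxo32, Trim63, Pomp, Irf1 and Tap1, apart from 2 genes of the rule that are not reported here; the rest are given by range and count. Counts of the gene lists with each library left out were added later.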

Additional observations from a re-analysis of the deposited data

How the results depend on the processing

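Most counts of the members moved with the length and GC correction. Under it, the members at an unadjusted p under 0.05 went from 21 (20 lower, 1 higher) to 6 (4 lower, 2 higher). Over all genes the shares at that limma p went from 10.5% lower and 13.0% higher to 6.69% and 7.75%. Non-overlapping members went from 31 to 7. Before correction 14.6% of all genes were lower and 15.6% higher without overlap, and the shares after it are not given here. The members' median log2 fold change went from -0.14 to 0.0016. With principal transcripts in the correction they were 4 (4 lower, 0 higher) with a median of 0.0074, and with DESeq2 they were 5 (3 lower, 2 higher) with a median of -0.00674. Over all genes, 0 passed an adjusted p of 0.05 in limma, 1587 in DESeq2 and 343 in corrected DESeq2. DESeq2 without the correction had 2 members higher at an unadjusted p under 0.05. Equal totals gave a median of -0.21, beside -0.08 over all genes, and quantile normalization -0.17.

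Leaving out each library in turn gave 0 to 3 genes at an adjusted p of 0.05, 12 to 20 members at an unadjusted p under 0.05 (12 to 19 lower, 0 to 4 higher) and a median of -0.16 to -0.12. The lowest counts came without WT replicate 1. In the same way DESeq2 gave 13 to 19 members, beside 2328 to 3436 genes over all, and the corrected fit gave 2 to 5 members. Counts over all genes at an unadjusted p under 0.05 are not given here for the limma and corrected fits with 1 library left out. In these fits Psmb8 over Psmb5 ran from -0.27 to 0.071 (above 0 without KOb/c replicate 1). Psmb9 over Psmb6 ran from -0.15 without KOb/c replicate 2 to 0.24, and was -0.091 after correction.

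The correction put Psmb5 at 0.0063 (0.015 by principal transcripts, 0.00912 in DESeq2), Psmc5 at 0.029 (0.022, 0.032), Psme1 at 0.031 (0.089, 0.037) and Irf1 at 0.0081 (0.00895 in DESeq2). With a library left out Irf1 ran from -0.15 to 0.0065 and Tap1 from -0.19 to 0.092, and Tap1 was at 0.00878 with sample weights.

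A replicate block gave 20 members at an unadjusted p under 0.05, 18 lower and 2 higher. The labels do not state whether the replicate numbers pair the samples. Same-numbered deviations from the group means correlated at 0.23, 0.07 and -0.03, and KOb/c replicates 2 and 3 correlated best with another number. With 3 libraries a group these correlations cannot decide it, since the deviations within a group are tied to each other. With 3 hearts a group, the exact test cannot go below 0.1.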
